A study of Mus musculus with 22 samples.

Results

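The 10 genes described here act at the step where a nerve terminal releases its vesicles: Cadps, Cadps2, Unc13a, Unc13b, Unc13c, Rims1, Rims2, Erc2, Syt1 and Snap25. Each gene was taken at its span in GENCODE release M 21 on the mouse build mm10 (GRCm 38), and its members were the 100 kb bins of 5-methylcytosine (5mC) and the 1 Mb bins of 5-hydroxymethylcytosine (5hmC) that overlap it. This gave 53 of 25664 usable 5mC bins and 12 of 2581 usable 5hmC bins, and 10 of 21718 protein-coding genes with a usable 5mC bin. The genes were chosen by their role in release and set around Cadps2, and the choice was made with 5mC and 5hmC levels of these same libraries in view. Which tissue pair or mark drew attention to Cadps2 is not recorded. Its values are therefore given as a description without a test, and calls on the other 9 genes are read beside the share called over the whole genome.

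The libraries came from cerebral cortex without the hippocampus, whole olfactory bulb and whole cerebellum of C57BL/6 mice aged 8 weeks, female by the study's methods, with no treatment or genetic change named for any group. 5mC was read by oxidative bisulfite sequencing (oxBS-seq, which oxidises 5hmC away before bisulfite) in 3 cortex, 2 olfactory bulb and 2 cerebellum libraries. 5hmC was read by TET-assisted bisulfite sequencing (TAB-seq, which shields 5hmC and oxidises 5mC) in 3 libraries per tissue. Replicates came from separate mice. The values are levels between 0 and 1 per bin, without the reads behind them, so the depth of any one bin is unknown and errors are the SD between libraries. Each level is an average over all cell types of a tissue, so a different cell makeup and a different level within a cell type cannot be told apart.

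These proteins work in sequence. Synaptic vesicles are tethered and primed at the active zone by RIM proteins (Rims1, Rims2), ELKS/CAST (Erc2) and Munc13 (the Unc13 genes), dense-core vesicles are primed by the CAPS proteins (Cadps, Cadps2), and both fuse through SNARE proteins such as SNAP25 when calcium binds synaptotagmin (Syt1). Cadps2 and Unc13c are known for their expression in cerebellar granule cells, the most numerous neurons of the cerebellum. In neurons, bodies of highly transcribed genes are known to carry much 5hmC and less 5mC.

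5mC and 5hmC were measured at CpG sites, so the CpG content of the gene starts sets how much of the signal near a start can be read. The 250 bases before the start were found in RefSeq (GRCm38.p6) for 8 of the 10 genes, one window each except for Syt1, which has more than 1 start. They held between 5 and 44 CpGs against a median of 6 over 32851 promoters, of which 92.1% hold at least 1. The 4 windows shown are those of the CAPS pair, Unc13c and Rims1. The first bins of Cadps2 and Unc13c and the second bin of Rims1 were lower in cerebellum than in the other tissues. The first Rims1 bin, which holds its window, was called higher in cerebellum than cortex. Each CpG is in capitals, and the windows are read along the gene's own strand (minus in all 4).
Cadps2, chr6:23839422-23839671: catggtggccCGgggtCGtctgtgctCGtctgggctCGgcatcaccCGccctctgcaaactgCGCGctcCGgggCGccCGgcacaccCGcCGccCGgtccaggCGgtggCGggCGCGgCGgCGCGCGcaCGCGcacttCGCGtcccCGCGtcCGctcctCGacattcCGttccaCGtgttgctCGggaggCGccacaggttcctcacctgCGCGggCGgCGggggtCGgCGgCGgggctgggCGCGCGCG
Cadps, chr14:12823080-12823329: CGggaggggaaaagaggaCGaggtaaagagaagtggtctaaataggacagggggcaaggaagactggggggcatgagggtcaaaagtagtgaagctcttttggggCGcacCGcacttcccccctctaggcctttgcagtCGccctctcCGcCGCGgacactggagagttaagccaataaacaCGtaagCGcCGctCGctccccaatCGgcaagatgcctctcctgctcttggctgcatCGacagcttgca
Unc13c, chr9:73969038-73969287: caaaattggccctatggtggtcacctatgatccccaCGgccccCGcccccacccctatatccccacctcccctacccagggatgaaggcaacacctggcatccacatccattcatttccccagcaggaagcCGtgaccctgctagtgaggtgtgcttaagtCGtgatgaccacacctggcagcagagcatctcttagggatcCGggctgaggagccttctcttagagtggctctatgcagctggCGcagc
Rims1, chr1:22806159-22806408: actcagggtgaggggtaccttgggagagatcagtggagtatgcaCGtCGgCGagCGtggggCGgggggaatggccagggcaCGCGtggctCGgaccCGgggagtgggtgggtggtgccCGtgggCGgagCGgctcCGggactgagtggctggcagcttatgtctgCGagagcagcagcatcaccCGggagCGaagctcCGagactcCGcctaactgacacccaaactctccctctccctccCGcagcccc
The Cadps2 window held 44 CpGs, as many as 0.539% of promoters, whereas Cadps held 14, a number reached by 29.4%. Unc13c held 6, reached by 50.4%, and Rims1 held 19, reached by 19.7%. A window of this size is a small piece of the 100 kb bin it lies in, and the bin values below do not resolve it.

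Over all bins the tissues were shifted against each other. The mean 5mC level of a library lay between 0.660 and 0.687 in cortex, 0.705 and 0.709 in olfactory bulb, and 0.723 and 0.739 in cerebellum. The mean 5hmC level lay between 0.155 and 0.173, 0.142 and 0.150, and 0.0938 and 0.0969 in the same order. Bins were compared with limma on the log2 ratio of the level to 1 minus the level, and a bin was called at an adjusted p under 0.05. On this scale the median 5mC bin was higher by 0.22 in olfactory bulb than cortex and by 0.43 in cerebellum than cortex, and the median differences of the 5hmC bins were -0.24 and -0.97. The SE was the same, 0.0732, for each 5hmC bin of the members, and varied little for 5mC (0.117 to 0.118 over the Cadps bins against cortex). The adjusted p of a bin thus rests mainly on a spread pooled over all bins, not on that of its own libraries. Tissue markers were chosen with earlier results of these data known, so they are no independent check. The 100 kb bins of 4 of 5 cortical neuron genes had their lowest 5mC in cortex, 3 of 5 cerebellar genes in cerebellum, and 2 of 5 olfactory bulb genes in olfactory bulb. Relative to the mean of each library those counts were 4, 5 and 1.

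Cadps2 (chr6:23262773-23839421, minus strand, 577 kb) had its lowest gene-wide 5mC in cerebellum. Averaged over its 7 bins, the level was 0.620 and 0.610 in the cerebellum libraries, 0.676, 0.667 and 0.656 in cortex, and 0.733 and 0.721 in olfactory bulb. The 3 tissues did not overlap, and the means were 0.615 ± 0.00716 (SD, n = 2), 0.666 ± 0.00991 (n = 3) and 0.727 ± 0.00855 (n = 2). The flanks, 10 bins within 500 kb of the gene, ran the other way: cerebellum was highest at 0.781 ± 0.0148, followed by olfactory bulb at 0.751 ± 0.000200 and cortex at 0.701 ± 0.0135.

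The low level of Cadps2 in cerebellum was not even along the gene. From the start to the end of the gene, the cerebellar bins read 0.566, 0.587, 0.610, 0.649, 0.666, 0.729 and 0.498. In cortex the same bins read 0.653, 0.714, 0.717, 0.715, 0.677, 0.705 and 0.483, and in olfactory bulb 0.726, 0.786, 0.789, 0.791, 0.762, 0.733 and 0.501. Cerebellum was thus furthest below the other tissues over the front of the gene and level with them in the last 2 bins. The widest gap was in the second bin (chr6:23700001-23800000, wholly inside the gene), with 0.585 and 0.588 in cerebellum, 0.723, 0.706 and 0.715 in cortex, and 0.789 and 0.782 in olfactory bulb. The last bin, low in every tissue, also holds Fezf1, a transcription factor gene. The first 2 wholly inside bins minus the last 2 came to -0.0991 ± 0.00386 (n = 2) in cerebellum, and was positive in the forebrain, at 0.0245 ± 0.000791 (cortex, n = 3) and 0.0399 ± 0.00201 (olfactory bulb, n = 2).

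Cadps (chr14:12372563-12823079, minus strand, 451 kb), which encodes the paralog CAPS1, had its highest level in cerebellum. Its gene-wide 5mC was 0.744 and 0.710 in cerebellum, 0.622 and 0.607 in olfactory bulb, and 0.595, 0.599 and 0.576 in cortex, without overlap between tissues. All 6 of its bins were called higher in cerebellum than cortex, with log2 differences between 0.68 and 1.17 (71.9% of all bins were called higher in this comparison), and all 6 stayed called when each library was centred on its own median. The share of all bins called after centring is not given here, so centred counts, for this gene and those below, are not set against the genome. The widest gap was in the third bin (chr14:12600001-12700000), at 0.783 ± 0.0119 (n = 2) in cerebellum against 0.616 ± 0.00823 (n = 2) in olfactory bulb. The last bin of Cadps holds Fezf2 as well.

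Set against each other within a library, the CAPS pair changed places. Cadps2 minus Cadps was 0.0804, 0.0680 and 0.0801 in the cortex libraries, 0.110 and 0.114 in olfactory bulb, and -0.124 and -0.100 in cerebellum. Cadps2 was the more methylated paralog in all 5 forebrain libraries and the less methylated in both of cerebellum.

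**Figure D1:**
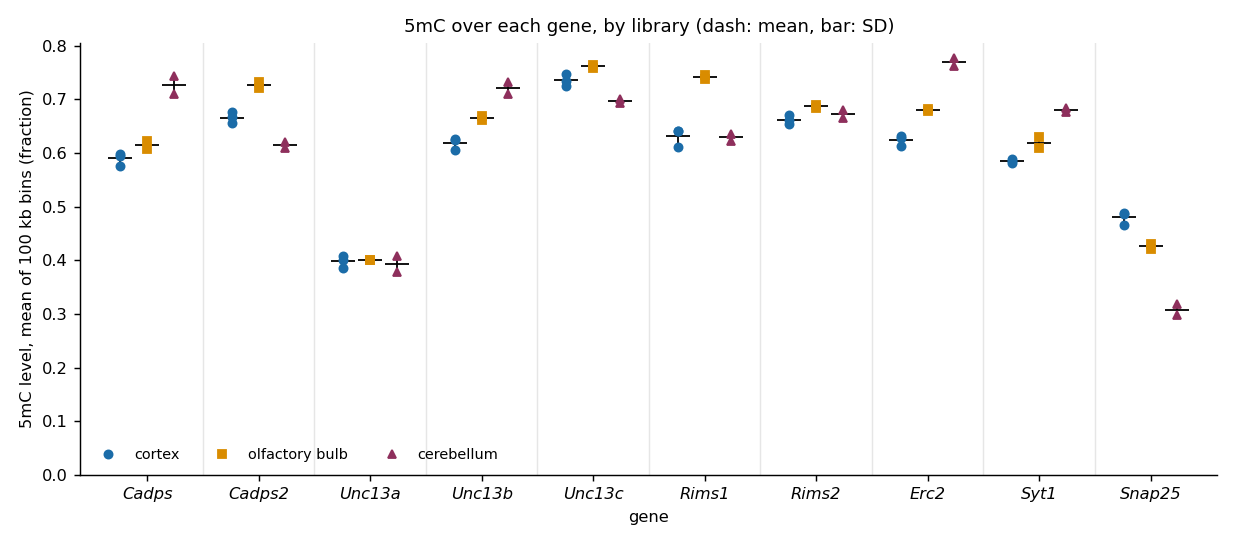
5mC level of each gene (vertical axis, fraction, mean of its 100 kb bins) in each library of cortex, olfactory bulb and cerebellum; dashes are tissue means and bars the SD. Cerebellum is lowest for Cadps2, Unc13c and Snap25 and highest for Cadps, Unc13b, Erc2 and Syt1, without overlap with the other tissues.

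The Unc13 genes encode Munc13 proteins, which prime synaptic vesicles, and the 3 did not follow a common order. Unc13c (chr9:73479422-73968966, minus strand, 490 kb) had 0.702 and 0.693 in cerebellum, 0.735, 0.747 and 0.725 in cortex, and 0.765 and 0.758 in olfactory bulb. As in Cadps2, the tissues did not overlap and cerebellum was lowest. Unc13b (chr4:43058953-43264871, plus strand, 206 kb) had 0.732 and 0.710 in cerebellum, 0.669 and 0.662 in olfactory bulb, and 0.625, 0.625 and 0.606 in cortex, so that cerebellum was highest. Unc13a (chr8:71624417-71671757, minus strand, 47.3 kb) lay in a single bin (chr8:71600001-71700000) with 6 other coding genes. Its mean was 0.398 ± 0.0108 (cortex, n = 3), 0.401 ± 0.0000985 (olfactory bulb, n = 2) and 0.394 ± 0.0214 (cerebellum, n = 2). Those Unc13a levels overlapped and no pair of tissues was called.

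Along Unc13c each cerebellar bin read higher than the one before it, from the start to the end of the gene: 0.561, 0.647, 0.680, 0.741, 0.752 and 0.804. Cortex stayed between 0.713 and 0.757 and olfactory bulb between 0.747 and 0.775 in the same bins. The first 3 bins were called lower in cerebellum than cortex, by -0.96, -0.63 and -0.36 on the log2 scale (SE 0.12, adjusted p 2.2e-14, 4.9e-07 and 0.0035), a direction called in 4.44% of all bins. The last bin was called higher, by 0.39 (adjusted p 0.0014), a call lost and turned slightly lower when libraries were centred. In the first bin (chr9:73900001-74000000, of which the gene covers 69.0%) the libraries read 0.571 and 0.550 in cerebellum, 0.706, 0.728 and 0.705 in cortex, and 0.751 and 0.755 in olfactory bulb. In Unc13b all 3 bins were called higher in cerebellum than cortex, and 2 of 3 when centred. The widest gap there was 0.826 ± 0.0166 (n = 2) against 0.701 ± 0.0159 (n = 3) in its second bin (chr4:43100001-43200000). Unc13c minus Unc13b averaged 0.117 ± 0.00668 over the cortex libraries and 0.0962 ± 0.0000628 over those of olfactory bulb, but -0.0238 ± 0.0101 over those of cerebellum, so this pair too changed places between forebrain and cerebellum.

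**Figure D2:**
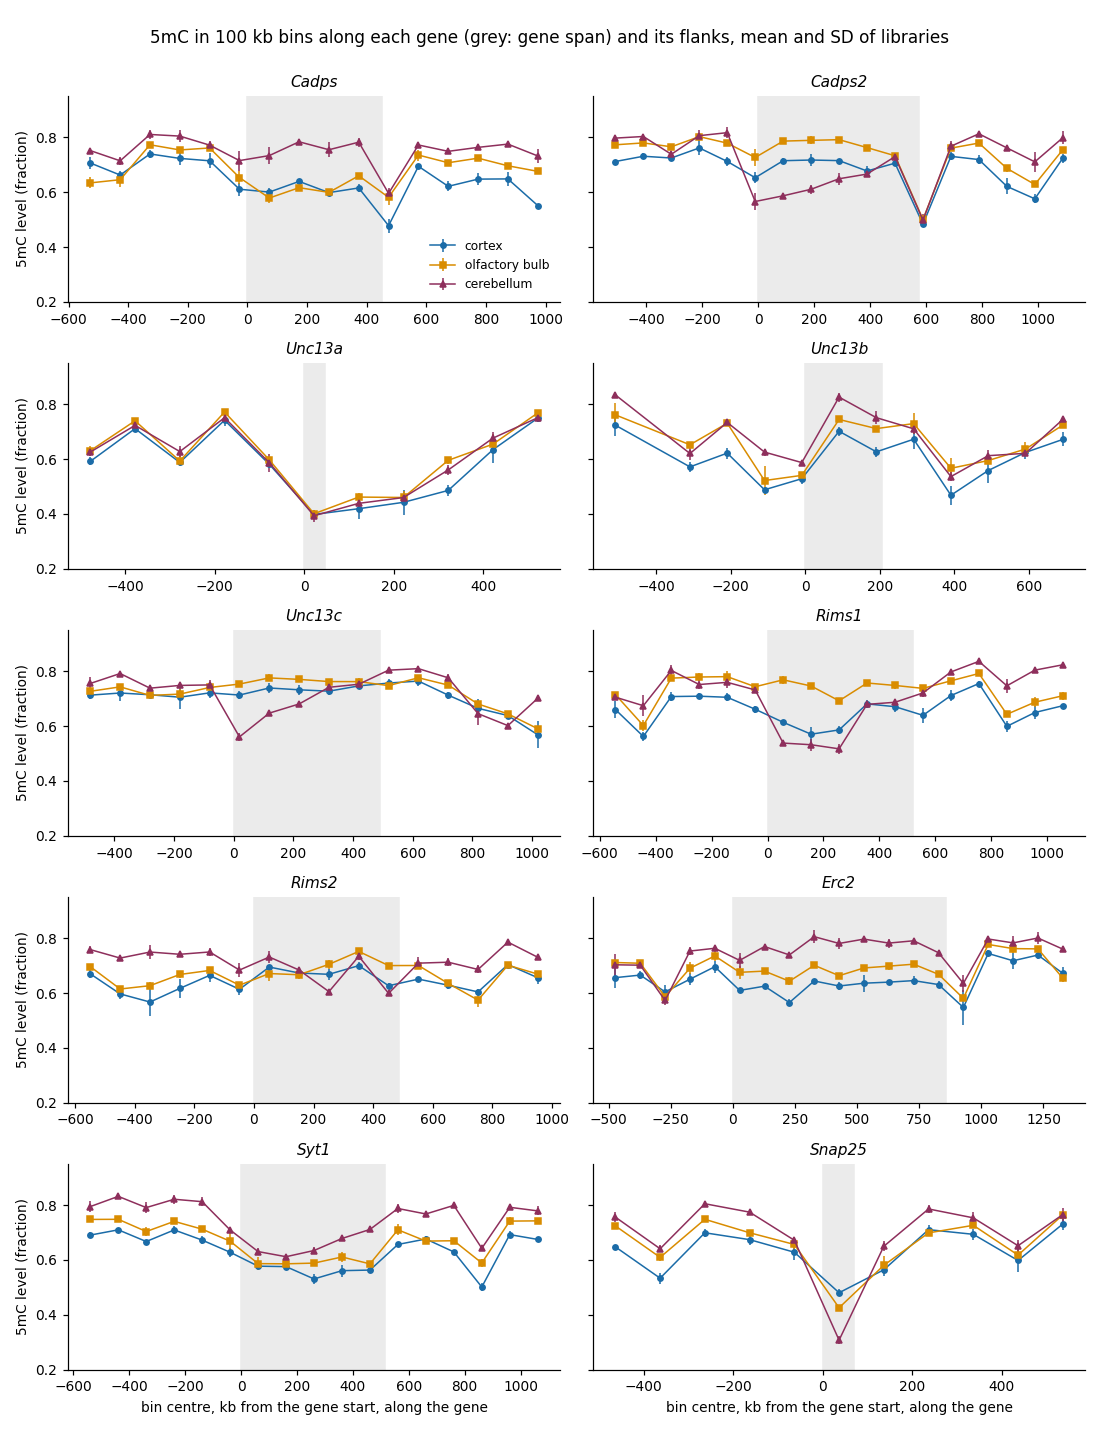
5mC level (vertical axis, fraction) of each 100 kb bin against its centre in kb from the gene start, along the direction of transcription, in cortex, olfactory bulb and cerebellum; points are tissue means, bars the SD between libraries and grey the gene span. In cerebellum the front of Cadps2 and Unc13c and bins 2 to 4 of Rims1 drop below the flanks, while Erc2 and Cadps stay above the other tissues throughout.

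Rims1 and Rims2 encode RIM scaffold proteins, which bind Rab3 on vesicles, Munc13 and calcium channels. Rims1 (chr1:22286251-22805994, minus strand, 520 kb) stood out for olfactory bulb, with 0.746 and 0.738 there, 0.641, 0.642 and 0.612 in cortex, and 0.636 and 0.622 in cerebellum. Cortex and cerebellum overlapped, and olfactory bulb was above both. All 7 bins were called higher in olfactory bulb than cortex, by 0.54 to 1.14 on the log2 scale, where 37.6% of all bins were, and all 7 stayed called after centring. The second bin (chr1:22700001-22800000) had 0.778 and 0.758 in olfactory bulb, 0.619, 0.618 and 0.604 in cortex, and 0.540 and 0.536 in cerebellum, the widest gap between 2 tissues in any bin of the 10 genes (0.230). Between cerebellum and cortex bins 2 and 4 of Rims1 were called lower (-0.45 and -0.40, adjusted p 0.00029 and 0.0011) and the end bins, of which the gene covers 5.99% and 13.8%, were called higher. After centring, 5 of the 7 were called lower and none higher, a count with no share of all bins beside it.

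Rims2 (chr15:39198261-39684372, plus strand, 486 kb) varied less, at 0.689 and 0.685 in olfactory bulb, 0.671, 0.662 and 0.654 in cortex, and 0.680 and 0.665 in cerebellum. Olfactory bulb was above both of the others without overlap, and cortex and cerebellum overlapped. Bin 4 from its start was called lower in cerebellum than cortex (0.605 ± 0.00343 against 0.668 ± 0.0200, log2 difference -0.40, adjusted p 0.0014) and its first 2 bins higher, of which the first lies almost wholly outside the gene. Its widest gap was in bin 6 (chr15:39600001-39700000, of which the gene covers 84.4%), at 0.700 ± 0.000513 (n = 2) in olfactory bulb against 0.599 ± 0.00113 (n = 2) in cerebellum (adjusted p 7.1e-06). After centring 3 bins were called lower and none higher. Rims1 minus Rims2 was negative in the 3 cortex libraries (-0.0304, -0.0203 and -0.0421), positive in both of olfactory bulb (0.0563 and 0.0530) and negative in both of cerebellum (-0.0436 and -0.0431).

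Erc2 (chr14:27622428-28478537, plus strand, 856 kb), an active-zone scaffold and the longest of the 10 genes, kept the same order of tissues in every bin. It read 0.778 and 0.761 in cerebellum, 0.683 and 0.678 in olfactory bulb, and 0.629, 0.632 and 0.613 in cortex. All 9 bins were called higher in cerebellum than in cortex, by 0.71 to 1.20, and than in olfactory bulb, by 0.30 to 0.86, where 71.9% and 35.3% of all bins were. With centred libraries 9 and 8 of them were still called higher. Its widest gap was 0.739 ± 0.00426 against 0.565 ± 0.0140 for cerebellum and cortex in the third bin (chr14:27800001-27900000).

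Syt1 (chr10:108497650-109010982, minus strand, 513 kb), the calcium sensor of fast release, was also highest in cerebellum. It had 0.685 and 0.676 there, 0.629 and 0.609 in olfactory bulb, and 0.585, 0.588 and 0.581 in cortex. Of its 7 bins, 6 were called higher in cerebellum than cortex and 3 after centring, and the difference was 0.32 and 0.22 in bins 2 and 3 and 0.93 in bin 6 (chr10:108500001-108600000). The cerebellar level was thus lower at the front than at the end: the first 2 wholly inside bins minus the last 2 gave -0.0736 ± 0.000735, against 0.0145 ± 0.00903 in cortex.

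Snap25 (chr2:136713453-136782428, plus strand, 69.0 kb), a SNARE of the plasma membrane, lay in a single bin (chr2:136700001-136800000) that held no other coding gene. Its 5mC was 0.297 and 0.318 in cerebellum, 0.431 and 0.421 in olfactory bulb, and 0.486, 0.489 and 0.467 in cortex. The tissues did not overlap and all 3 pairs were called: cerebellum below cortex by -1.06 (SE 0.12, adjusted p 5.2e-17), cerebellum below olfactory bulb by -0.74 (adjusted p 2.1e-07) and olfactory bulb below cortex by -0.32 (adjusted p 0.022). Each difference grew in size after centring, to -1.47, -0.92 and -0.54. The cerebellar level, 0.308 ± 0.0148 (n = 2), was the lowest of any of the 53 bins in any tissue.

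Over the 46 bins of the 9 tested genes, 36 were called between cerebellum and cortex, 29 higher and 7 lower, where 76.4% of all bins were called, 71.9% higher and 4.44% lower. Between olfactory bulb and cortex 27 were called, 26 higher and 1 lower, where 39.7% of all were called, 37.6% higher and 2.18% lower. Between cerebellum and olfactory bulb 32 were called, 21 higher and 11 lower, against 43.0%, 35.3% and 7.69% of all. The median log2 difference of the 46 bins was 0.51, 0.29 and 0.28 in these comparisons, beside 0.43, 0.22 and 0.19 over all bins. With each library centred on its median the splits became 20 higher and 15 lower, 11 higher and 6 lower, and 17 higher and 17 lower. The share of all bins called after centring is not given here, so no centred count is set against the genome. The count between olfactory bulb and cortex rested on both olfactory bulb libraries, since it fell to 11 without replicate 1 and 14 without replicate 2. By whole gene, 8 of the 10 were higher in olfactory bulb than cortex without overlap and 1 was lower (57.4% and 2.28% of all genes). Cerebellum was higher than cortex in 4 and lower in 3 (65.1% and 6.22% of all genes), and higher than olfactory bulb in 4 and lower in 5 (43.2% and 22.1%). Cadps2, around which the set was built, is among the 8 higher, the 3 lower and the 5 lower. These counts describe the set and are no test of it. The two-sided exact permutation test of a gene mean was run with the smaller tail doubled. In this form it cannot go below 0.2 with 3 libraries against 2, or below 0.333 with 2 against 2, so none could pass 0.05.

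The shift of whole libraries drops out when a gene is compared with its own surroundings. For each library the 5mC of the flanks within 500 kb was subtracted from that of the gene, and the difference was fitted with limma over 21711 protein-coding genes. Between cerebellum and cortex 7 of the 9 tested genes were called, 3 higher and 4 lower, where 23.0% of all genes were called (11.7% higher and 11.3% lower). Lower were Snap25 by -0.250 (SE 0.0122, adjusted p 1.22e-05), Rims1 by -0.0991 (SE 0.00968, adjusted p 0.000247), Rims2 by -0.0890 (SE 0.0102, adjusted p 0.000556) and Unc13c by -0.0775 (SE 0.0108, adjusted p 0.00140). Higher were Erc2 by 0.0876 (SE 0.0108, adjusted p 0.000773), Cadps by 0.0436 (SE 0.0102, adjusted p 0.0157) and Unc13b by 0.0317 (SE 0.0101, adjusted p 0.0495). The median of the 9 was -0.0302, beside 0.000239 over all genes. Syt1 (-0.0249, adjusted p 0.111) and Unc13a (-0.0302, adjusted p 0.0702) were not called. Cadps2, with no test, differed by -0.131, from -0.0297, -0.0444 and -0.0296 in cortex to -0.171 and -0.161 in cerebellum. The difference joins the level of the gene and that of its flanks. In Rims1 and Rims2 the gene itself read -0.00239 and 0.0101 in cerebellum minus cortex, with overlapping libraries, whereas the flanks were higher by 0.0967 and 0.0991. The Rims1 flanks went from 0.673 ± 0.0138 in cortex to 0.770 ± 0.0141 in cerebellum, and the Rims2 flanks from 0.636 ± 0.0155 to 0.735 ± 0.0116, without overlap. Over its wholly inside bins alone the Rims1 gene read -0.0337. In Snap25 and Unc13c the gene was lower, by -0.173 and -0.0381, and the flanks higher, by 0.0774 and 0.0394. In Erc2, Cadps and Unc13b both were higher, the gene by 0.145, 0.137 and 0.103 and the flanks by 0.0577, 0.0935 and 0.0709. In order of the gene-minus-flank difference from the lowest of the 21711 genes, Snap25 was at place 5, Cadps2 at 124, Rims1 at 307, Rims2 at 396 and Unc13c at 540.

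Of the 3 higher genes, Unc13b and Cadps lost their calls under some alternatives. Unc13b lost its call without any 1 of the 7 libraries (adjusted p 0.0536 to 0.274), and Cadps lost it without cerebellum replicate 1, cerebellum replicate 2 or cortex replicate 1 (adjusted p 0.150, 0.0541 and 0.0508, with a range of 0.000236 to 0.150 over all alternatives). Erc2 and the 4 lower genes stayed called in every alternative tried. Between cerebellum and olfactory bulb the same 7 genes were called in the same directions, against 20.9% of all genes (9.95% higher and 10.9% lower), and the comparison shares its cerebellum libraries with the last one. There Rims1 differed by -0.158 (adjusted p 3.12e-05), Snap25 by -0.161 (adjusted p 8.09e-05), Rims2 by -0.0925, Unc13c by -0.0878, Erc2 by 0.0591, Cadps by 0.0589 and Unc13b by 0.0425, with a median of -0.0156 over the 9 genes and -0.00178 over all genes. Without cerebellum replicate 1 the call of Cadps was lost (0.0671), without cerebellum replicate 2 that of Erc2 (0.0663), and Unc13b was lost without either or without olfactory bulb replicate 1 (0.0857 to 0.159).

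Between olfactory bulb and cortex 2 of the 9 were called, against 5.84% of all genes (3.27% higher and 2.57% lower). Rims1 was higher by 0.0585 (SE 0.00968, adjusted p 0.0107) and Snap25 lower by -0.0892 (SE 0.0122, adjusted p 0.00489). The median of the 9 was -0.00930, beside 0.00167 over all genes. The call of Rims1 was lost without either olfactory bulb library (adjusted p 0.0776 and 0.0515). Set against 0, the difference between gene and flanks was called in all 9 tested genes in cortex, 3 above and 6 below their flanks (76.3% of all genes, 29.0% above and 47.4% below). In cerebellum all 9 were called as well, 2 above and 7 below (68.9%, 26.6% and 42.3% of all genes), and in olfactory bulb 6, 2 above and 4 below (70.4%, 27.7% and 42.7%). Those not called in olfactory bulb were Rims1 (0.0170, adjusted p 0.0667), Erc2 (-0.0161, adjusted p 0.111) and Unc13b (0.00799, adjusted p 0.379). Rims1 stood above its flanks in both olfactory bulb libraries (0.0223 and 0.0118), below them in cortex (-0.0426, -0.0364 and -0.0455) and further below in cerebellum (-0.143 and -0.138).

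**Figure D3:**
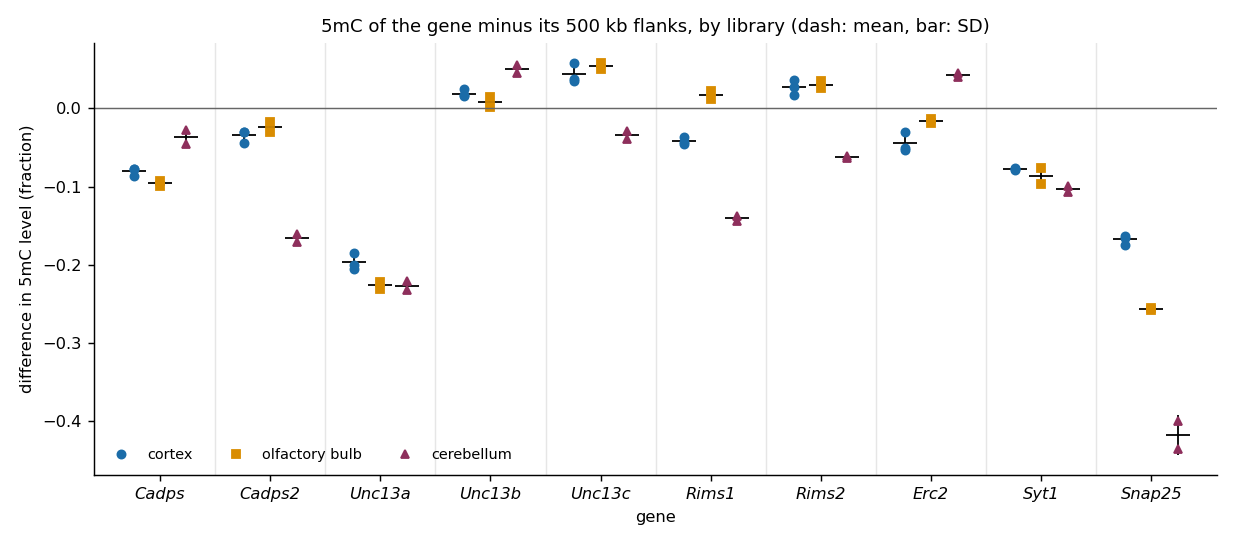
5mC of the gene minus 5mC of its 500 kb flanks (vertical axis, difference of fractions) in each library, by gene and tissue; dashes are means, bars the SD, and the line marks 0. Cerebellum lies below the forebrain tissues for Cadps2, Unc13c, Rims1, Rims2 and Snap25, and above them for Cadps, Unc13b and Erc2. It lies slightly below them for Syt1 too, by -0.0249 against cortex and -0.0156 against olfactory bulb, with neither difference called.

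For 5hmC a 1 Mb bin takes in more than the gene: the gene covers between 37.8% and 57.7% of the bin for Cadps, Cadps2, Unc13c, Rims1, Rims2 and Erc2, and 20.6% for Unc13b, 6.90% for Snap25 and 4.73% for Unc13a. Syt1 covers 50.2% of its main bin and 1.10% of the other. The Cadps2 bin (chr6:23000001-24000000) had 0.177, 0.182 and 0.180 in cerebellum, 0.160, 0.174 and 0.152 in cortex, and 0.121, 0.126 and 0.122 in olfactory bulb. Cerebellum was highest and the tissues did not overlap. The 1 Mb bins on either side of it read 0.118 ± 0.00246 and 0.0790 ± 0.00159 (n = 3) in cerebellum, against 0.162 ± 0.0107 and 0.191 ± 0.0100 in cortex. The Cadps bin fell from 0.219 ± 0.0127 in cortex and 0.218 ± 0.00812 in olfactory bulb to 0.140 ± 0.00253 in cerebellum. Cadps2 minus Cadps was accordingly negative in cortex (-0.0589, -0.0570 and -0.0541) and olfactory bulb (-0.0931, -0.102 and -0.0914) and positive in cerebellum (0.0339, 0.0438 and 0.0417).

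Rims1 and Unc13c were the other genes with more 5hmC in cerebellum than in olfactory bulb. The Rims1 bin read 0.210, 0.200 and 0.207 in cerebellum, 0.191, 0.206 and 0.177 in cortex, and 0.142, 0.145 and 0.139 in olfactory bulb. The Unc13c bin read 0.172, 0.171 and 0.173 in cerebellum, 0.167, 0.177 and 0.155 in cortex, and 0.133, 0.137 and 0.128 in olfactory bulb. Both overlapped between cerebellum and cortex and were not called there (log2 differences 0.13 and 0.06, adjusted p 0.073 and 0.43). Both were called higher in cerebellum than olfactory bulb, by 0.64 (SE 0.07, adjusted p 4.1e-18) and 0.44 (adjusted p 2.3e-09), with the SE pooled over all bins. That direction was shared by 1.20% of all 1 Mb bins. Counted from the highest cerebellum minus cortex difference of the 2581 bins, Cadps2 was at place 9, Rims1 at 13 and Unc13c at 20, and for cerebellum minus olfactory bulb they were at 5, 6 and 9. The bins beside the Rims1 bin held 0.128 ± 0.00344 and 0.0816 ± 0.00222 in cerebellum.

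The other genes had less 5hmC in cerebellum than cortex, as nearly all of the genome did, but the size of the loss differed. Counted from the highest difference of the 2581 bins, Rims2 was at place 119, the main Syt1 bin at 123, Snap25 at 219 and Unc13a at 488. Their remaining bins lay between 624 and 1435. The median log2 difference of the 11 tested bins, Rims1 and Unc13c included, was -0.56, beside -0.97 over all bins. Of the 11 tested bins, 9 were called between cerebellum and cortex, all lower, where 98.1% of all bins were called (0.426% higher and 97.6% lower). The Erc2 mean fell from 0.214 ± 0.0112 to 0.126 ± 0.00117, Unc13b from 0.176 ± 0.0106 to 0.101 ± 0.00421, Unc13a from 0.119 ± 0.00945 to 0.0839 ± 0.00331, Syt1 from 0.205 ± 0.00994 to 0.160 ± 0.00232, Snap25 from 0.198 ± 0.00906 to 0.158 ± 0.00128 and Rims2 from 0.212 ± 0.0115 to 0.183 ± 0.00326 (SD, n = 3 each). Relative to the shift of the genome the direction turned: after centring 10 of the 11 bins were called higher in cerebellum than cortex and none lower. The widest of these were Rims1 at 1.17, Unc13c at 1.10 and Rims2 at 0.78 on the log2 scale, and the second bin of Erc2 was not called. How many of all bins were called after centring is not given here, so the turn is not read as particular to these genes. All 11 were called between cerebellum and olfactory bulb, 2 higher and 9 lower, against 93.0% of all bins (91.8% lower), and 9 higher and 1 lower after centring. Between olfactory bulb and cortex 6 were called, 1 higher and 5 lower, against 70.9% (3.25% higher and 67.7% lower), and 6 higher and 3 lower after centring. The higher one was the main Syt1 bin, at 0.239 ± 0.00592 in olfactory bulb and 0.212 ± 0.0116 in cortex (log2 difference 0.23, adjusted p 0.0038). By gene, 7 of the 10 were lower in cerebellum than cortex without overlap and 1, Cadps2, was higher, where 98.2% and 0.0827% of all genes were. Against olfactory bulb 7 were lower in cerebellum and 3 higher (90.0% and 1.17% of all genes), and in olfactory bulb against cortex 5 were lower and 1 higher (77.1% and 1.03%). Cadps2, around which the set was built, is the only gene higher in cerebellum than cortex and is among the 3 higher and the 5 lower. These counts too describe the set and are no test of it. With 3 libraries against 3 the smallest two-sided exact permutation p is 0.1.

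**Figure D4:**
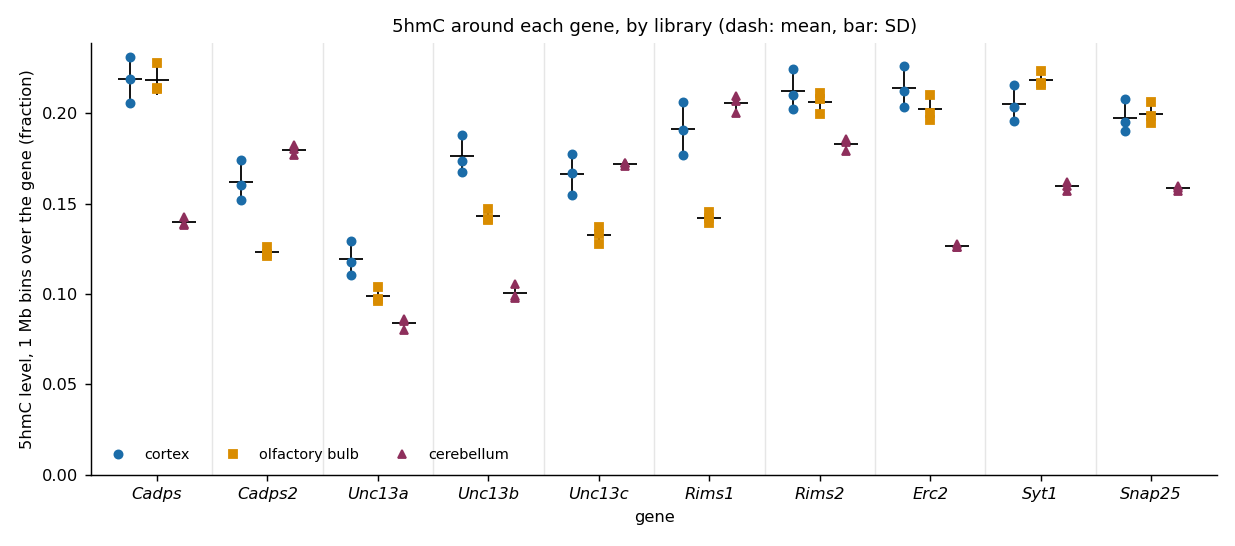
5hmC level (vertical axis, fraction) of the 1 Mb bins over each gene in the 3 TAB-seq libraries of each tissue; dashes are means and bars the SD. Cerebellum is above cortex and olfactory bulb for Cadps2, above olfactory bulb for Rims1 and Unc13c, and below both for the other 7 genes.

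The marks differed in opposite directions in most of the member bins, and over all bins their differences were negatively correlated. With 5mC averaged over the same 1 Mb bins, 11 of 12 member bins had opposite signs of the 5mC and 5hmC difference between cerebellum and cortex, 11 of 12 between cerebellum and olfactory bulb, and 9 of 12 between olfactory bulb and cortex. The exception between cerebellum and cortex was Rims1, higher by 0.0205 in 5mC and 0.0142 in 5hmC. The share of all bins with opposite signs is not given here. Their medians for cerebellum minus cortex were 0.0595 in 5mC and -0.0708 in 5hmC. Pearson's r over the 12 bins was -0.798, -0.969 and -0.489, and over all 2581 bins -0.723, -0.777 and -0.691. The bins share libraries and neighbours, so these are descriptions. In the Cadps2 bin cerebellum minus olfactory bulb was -0.0704 for 5mC and 0.0567 for 5hmC, and their sum moved from 0.863 to 0.850. In the Rims1 bin the sum moved from 0.895 to 0.885, with 5hmC making up 15.9% of it in olfactory bulb and 23.2% in cerebellum. In the Cadps bin the sum was 0.880 and 0.882, with a 5hmC share of 24.8% and 15.9%. The 2 Syt1 bins stood apart between cerebellum and cortex, where the sum was higher by 0.0680 and 0.0795, against a median change of -0.0154 over all bins.

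**Figure D5:**
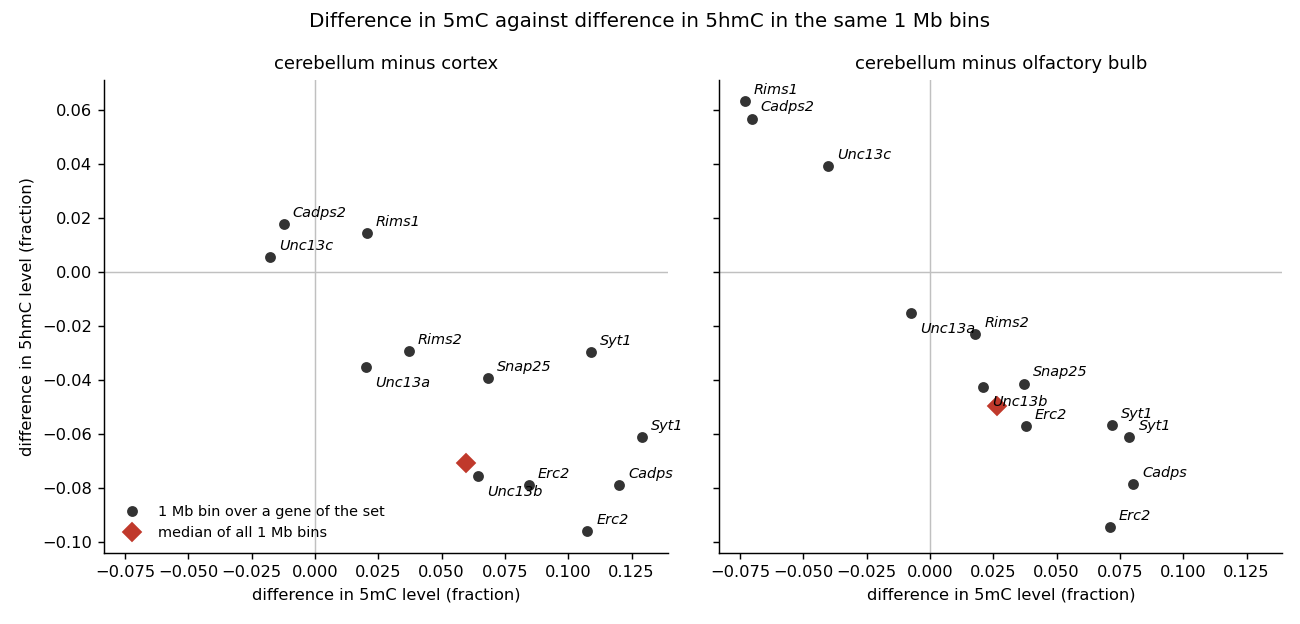
Difference in 5hmC (vertical axis) against difference in 5mC (horizontal axis, both as fractions) in the 12 1 Mb bins over the 10 genes, for cerebellum minus cortex and cerebellum minus olfactory bulb; the diamond is the median of all 1 Mb bins. Cadps2, Rims1 and Unc13c lie at higher 5hmC in cerebellum, away from the diamond. Against cortex, the 5hmC libraries of Rims1 and Unc13c overlapped and their differences were not called. The 5mC of Cadps2, Rims1 and Unc13c is lower in cerebellum, except that Rims1 is higher by 0.0205 than in cortex. Cadps, Erc2 and Syt1 lie at higher 5mC and lower 5hmC.

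Beyond the 10, a list of 49 other genes of transmitter release was followed with the same gene-minus-flank measure. The list was chosen with earlier results of these data known, so its counts are no independent check. Between cerebellum and cortex 27 were called, 4 higher and 23 lower, against 23.0% of all genes (11.7% higher and 11.3% lower). Between cerebellum and olfactory bulb 27 were called, 5 higher and 22 lower, against 20.9% (9.95% higher and 10.9% lower). Between olfactory bulb and cortex 8 were called, 6 higher and 2 lower, against 5.84% (3.27% higher and 2.57% lower). The medians of the list were -0.0276, -0.0266 and 0.000228, beside 0.000239, -0.00178 and 0.00167 over all genes. The largest cerebellum minus cortex differences called were those of Bsn (the active-zone scaffold Bassoon, -0.190, adjusted p 2.2e-05), Rims3 (1 bin only, -0.137, adjusted p 0.00254) and Sv2b (a synaptic vesicle glycoprotein, -0.119, adjusted p 0.000153). The Bsn bins read 0.382 in cerebellum against 0.513 in cortex and 0.528 in olfactory bulb. Against olfactory bulb, Sv2b (-0.200), Ppfia4 (a liprin scaffold, -0.183) and Bsn (-0.178) led, and between olfactory bulb and cortex Syt6 (-0.113), Sv2b (0.0810) and Apba2 (0.0759).

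Among 2341 protein-coding genes of at least 100 kb on other chromosomes, those with 5mC nearest to Cadps2 over the 7 libraries, each taken relative to the mean of its library, were Fgf14, Mcf2l and Atp11a (Euclidean distance 0.0457, 0.0491 and 0.0500). Fgf14 read 0.625 in cerebellum, 0.643 in cortex and 0.717 in olfactory bulb, and Mcf2l and Atp11a are neighbours on chromosome 8. Of the members, Rims1 was nearest at a distance of 0.0682, then Rims2 at 0.0995 and Unc13c at 0.175, while Cadps was at 0.261 and Unc13a at 0.725.

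CpG density differed among the genes. It was 21.3 CpGs per kb in the Unc13a bin, 8.48 over the Cadps2 bins, 7.35 over Cadps and 6.98 in the Snap25 bin, where the median bin of the genome had 7.53. Over the 53 member bins 5mC was lower where CpGs were denser, with Pearson's r of -0.543 for cortex, -0.525 for olfactory bulb and -0.348 for cerebellum, and over all 25664 bins with -0.640, -0.639 and -0.625. Bins of a gene are neighbours, and these values describe them without a test. The Snap25 bin lay below the median density, and whether density bears on its 5mC level was not tested.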

How the data were processed

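The deposited tables give 5mC (7 oxBS-seq libraries, 100 kb bins) and 5hmC (9 TAB-seq libraries, 1 Mb bins) as fractions per bin. To make these fractions the authors converted and sequenced the DNA, mapped paired reads uniquely to mm10 with Bismark, took as modified the sites with a coverage of at least 5 that passed a binomial test, and counted unconverted bases. How sites were combined into bins is not given in the sources used here, nor is coverage per bin, so a level from many reads weighs no more than one from few. The 6 RNA-seq samples were not analysed here.

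Bins at 0 or 1 in any library were left out (25664 of 26327 kept for 5mC, 2581 of 2641 for 5hmC), which removed 1 flank bin of Unc13b. Gene spans came from GENCODE release M 21, and chromosome lengths were checked against GRCm 38. Levels were fitted on log2(level/(1 - level)) with limma 3.58.1 in R 4.3.3, the 3 tissues in one fit and no covariate, with Benjamini-Hochberg adjustment over all bins. The gene-minus-flank difference was fitted as fractions over all protein-coding genes with both values. The steps were tested on simulated data. Gene means were compared with exact permutation tests (Python 3.11.15, scipy 1.17.1). Alternatives were the fraction scale, centred libraries, kept bins at 0 or 1 (moved to 0.001 from the limit), trend and robust options, a replicate block, each library left out, pairs fitted alone, other flanks (250 kb, 1 Mb), weighted or wholly inside bins, and genes of at least 100 kb alone. The members, the list of 49 other release genes and the tissue markers were chosen with earlier results of these data known. Named genes are all members with their widest bin, the up to 3 called genes of the other release list with the largest change per pair of tissues, and the 3 genes nearest to Cadps2 in 5mC.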

Additional observations from a re-analysis of the deposited data

Results flagged for a closer look

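The 5mC of a gene relative to its 500 kb flanks had opposite signs in 2 tissues, in every library, for 4 genes. The share of all genes that turn in this way is not given here, so the count is not read as particular to the set. Unc13c lay above its flanks in all cortex and olfactory bulb libraries and below them in both cerebellum libraries, a difference of -0.0775 against cortex and -0.0878 against olfactory bulb (limma, adjusted p 0.00140 and 0.00115). Rims2 did the same, with differences of -0.0890 and -0.0925 (adjusted p 0.000556 and 0.000665). The Rims2 gene level itself differed by 0.0101 between cerebellum and cortex, with overlapping libraries, and its flanks by 0.0991. Rims1 lay below its flanks in cortex and cerebellum and above them in olfactory bulb, with 0.0585 for olfactory bulb minus cortex (adjusted p 0.0107) and -0.158 for cerebellum minus olfactory bulb (adjusted p 3.12e-05). Its value above the flanks in olfactory bulb, 0.0170, was not called against 0 (adjusted p 0.0667). Erc2 lay below its flanks in both forebrain tissues and above them in cerebellum, by 0.0876 against cortex and 0.0591 against olfactory bulb (adjusted p 0.000773 and 0.00803). Its value below the flanks in olfactory bulb, -0.0161, was not called against 0 either (adjusted p 0.111).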

How the results depend on the processing

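Of the counts recomputed under the alternatives, 143 stayed within 1.5 times and 10 did not. Of the single-gene values, 467 kept their side and direction, 24 lost a call, 8 gained one, 11 turned sign, and 12 gene levels moved by more than 1 SD with weighted or wholly inside bins. Between cerebellum and cortex 22 of the 30 bins wholly inside a tested gene were called for 5mC, and for 5hmC 5 of the 7 bins of which a gene covers at least 25% were called, and 7 between cerebellum and olfactory bulb. Fewer bins enter these counts than the full ones, which were 36 of 46 for 5mC and 9 of 11 for 5hmC between cerebellum and cortex. With centred libraries the 5mC count for olfactory bulb against cortex was 17. Leaving out 1 library gave 11 to 26 bins there, 32 to 36 for cerebellum against cortex and 27 to 37 for cerebellum against olfactory bulb, and 1 to 2, 5 to 6 and 5 to 7 genes for the gene-minus-flank measure. With bins wholly inside the gene, 0 genes were lower in olfactory bulb than cortex without overlap, since Snap25 has no such bin.

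Signs of the gene-minus-flank difference turned only where no call was made. Unc13a, cerebellum minus olfactory bulb, was 0.00602 on log2 ratios, 0.00383 with 1 Mb flanks, 0.00183 with 250 kb flanks, and -0.00626 to 0.00601 with 1 library left out. For olfactory bulb minus cortex, Cadps was 0.000221 with 1 Mb flanks, Syt1 0.00870 with 250 kb flanks and -0.0195 to 0.000919 with 1 library left out, and Rims2 -0.00640 with bins wholly inside and -0.00144 to 0.00818 with 1 library left out. The cause of these was not tested.

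Samples sharing a replicate number did not deviate together throughout: r of their deviations was -0.0906 to 0.0158 (mean -0.0185) over 6 pairs for 5mC and -0.229 to 0.344 (mean 0.00181) over 9 pairs for 5hmC, so the block was not used. With the numbers of the labels as a replicate block, 21, 37 and 37 5mC bins were called (olfactory bulb against cortex, cerebellum against cortex, cerebellum against olfactory bulb), 6, 9 and 11 5hmC bins, and 2, 6 and 7 genes, Unc13b losing its call between cerebellum and cortex (adjusted p 0.0797). With the numbers in the library names as a replicate block, the call of Rims1 between olfactory bulb and cortex was lost (adjusted p 0.0510), leaving 1 gene. Bins of 100 kb and 1 Mb cannot show a promoter or an enhancer, and without coverage a bin's own precision is unknown.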
